A study of Mus musculus with 4 samples.

Results

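Contact of the zinc finger protein genes named Zfp with the nuclear lamina was compared between hepatocytes with and without *Tm7sf2*. The genes were all protein-coding records of the mm9 annotation with a symbol of Zfp followed by a digit on chromosomes 7, 8, 10, 13 and 17. There were 202 such records, of 22367 protein-coding genes, with 87 on chromosome 7, 27 on chromosome 8, 5 on chromosome 10, 38 on chromosome 13 and 45 on chromosome 17. They carry 199 symbols, since Zfp319, Zfp708 and Zfp738 each have 2 records.

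Libraries of 4 kinds were made from primary mouse hepatocytes, the main cell type of the liver, taken from mice 12 to 16 weeks old. WT and constitutive Tm7sf2-/- mice (Tm7sf2/NET47 KO) were used, and the hepatocytes of each genotype were transduced in culture with a lentivirus for the Dam-LaminB1 fusion or for Dam alone. Each of the 4 libraries came from the pooled DNA of 4 mice, so each genotype is represented by 1 pair. The genotypes cannot be compared by a test, no spread between animals is known, and every difference below is a difference between these libraries. Only part of the cells take up the virus, and the cells had been in culture for under 3 days when the DNA was taken.

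*Tm7sf2* encodes a sterol reductase of the inner nuclear membrane and the endoplasmic reticulum. LaminB1 is a protein of the lamina, the meshwork under the nuclear envelope. In DamID the Dam enzyme methylates adenine in GATC near the fused protein, and *DpnI* cuts only methylated GATC, so sequenced fragments report contact with the lamina. The Dam only library serves as the background for open chromatin. A lamina-associated domain (LAD) is a stretch in which the fusion exceeds this background. The deposited lists hold 8107 WT LADs over 1472 Mb and 16076 KO LADs over 1490 Mb, so the KO list has more pieces over similar bases. The study gives a lower number of usable reads for KO than for WT, and what depth contributes to this was not tested. A differential region (DR) is a LAD of one genotype, or a part of one, outside the LADs of the other and at least 10 kb long. A gene touching a WT-only DR is PI (peripheral in WT, interior in KO), a gene touching a KO-only DR is IP, and a gene touching both is AMB. Genes with LADs of both genotypes and no DR are PP, and the rest are II.

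Most Zfp genes encode C2H2 zinc finger proteins, in which a pair of cysteines and a pair of histidines hold a zinc ion and each finger reads a few bases of DNA. Many also carry a KRAB domain, which recruits the corepressor Trim28 and through it the histone methyltransferase Setdb1 and heterochromatin proteins. KRAB zinc finger genes arose by repeated duplication, lie in clusters of near relatives, and are known for silencing transposable elements and imprinted genes. Their fingers are usually coded in 1 long last exon, and the clusters themselves can be packed in heterochromatin.

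Both words of the name were checked. Translation of the longest coding transcript found at least 1 C2H2 finger in 194 of the 202 records, with a median of 11 fingers and up to 33 in Zfp619. The 8 records without one were Zfp36 and Zfp36l2, which encode RNA-binding proteins with another type of finger, and Zfp703, Zfp330, Zfp365, Zfp781, Zfp850 and 1 record of Zfp319. Clusters were set by position alone, as runs of at least 3 records with gaps of at most 500 kb. There were 18 clusters with 153 of the 202 records, and 49 records lay outside them. Defining genes of hepatocytes cannot be checked here, as a LAD list holds no expression.

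The repeat unit of these genes is shown by 84 bases of 1 finger and its linker, from 6 members that the results below turn on. Each is written 5′ to 3′ on the coding strand of the NCBIM37 (mm9) genome, and the capitals mark the codons of the 2 cysteines and the 2 histidines. Zfp429, Zfp551, Zfp709 and Zfp715 lay wholly inside a DR, Zfp456 is the chromosome 13 neighbor of Zfp429, and Zfp820 is from chromosome 17.
Zfp429 (PI, chr13:67490892-67490975, minus strand, exon 4 of 4): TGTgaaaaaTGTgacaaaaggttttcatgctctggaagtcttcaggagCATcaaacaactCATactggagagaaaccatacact
Zfp456 (PI, chr13:67467445-67467528, minus strand, exon 4 of 4): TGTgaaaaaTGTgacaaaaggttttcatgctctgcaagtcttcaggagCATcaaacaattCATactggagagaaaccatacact
Zfp820 (PI, chr17:21956677-21956760, minus strand, exon 5 of 5): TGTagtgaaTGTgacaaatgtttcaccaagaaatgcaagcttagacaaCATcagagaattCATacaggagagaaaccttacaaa
Zfp551 (PI, chr7:13001060-13001143, minus strand, exon 4 of 4): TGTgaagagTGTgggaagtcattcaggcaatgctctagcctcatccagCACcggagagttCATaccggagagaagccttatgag
Zfp709 (IP, chr8:74413390-74413473, plus strand, exon 3 of 3): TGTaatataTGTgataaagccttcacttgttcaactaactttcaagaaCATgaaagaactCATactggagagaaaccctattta
Zfp715 (IP, chr7:50554498-50554581, minus strand, exon 5 of 5): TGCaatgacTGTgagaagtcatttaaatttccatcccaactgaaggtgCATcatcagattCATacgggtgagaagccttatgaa
The stretches of Zfp429 and Zfp456 have 82 of 84 bases in common, the most of any pair among the named members compared (the next pair, Zfp820 and Zfp947, shares 74). Short reads from stretches as alike as the first pair can fit more than 1 gene. For this reason the share of 31-base words of a gene's span that occur once in the genome (unique words) was computed. Its median was 90.5% over the 202 records, with a range from 2.81% to 100%. It is given below for only some of the named genes. Low values not repeated there include those of the longer Zfp738 record (52.8%), Zfp943 (63.0%), Zfp81 (69.0%), Zfp456 (69.5%) and Zfp709 (75.8%). It was not computed for genes without a Zfp symbol, such as Rsl1.

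Of the 202 records, 116 were II, 32 were IP, 31 were PP, 20 were PI and 3 were AMB. IP made up 15.8% of the records (95% Wilson interval 11.5 to 21.5%, counting error only), close to the 17.1% among all protein-coding genes. PI made up 9.90% (6.50 to 14.8%), against 5.43% of all protein-coding genes. PP made up 15.3% against 17.9%, II 57.4% against 56.6%, and AMB 1.49% against 2.96%. Members of a cluster can share a DR and 13 of the 202 overlap another member, so the genes are not independent and these intervals are too narrow.

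The higher PI share was found mainly on chromosome 13. There 11 of 38 Zfp genes were PI (28.9%), against 4.59% of the other genes of that chromosome. In the largest cluster of chromosome 13, 8 of 24 Zfp records were PI, and so were 6 of the 14 other protein-coding genes. Within that stretch PI genes were therefore not particular to the Zfp name. Without chromosome 13 the PI share of the remaining Zfp genes was 5.49%, near the value over all genes. On chromosome 17 it was 11.1% (5 of 45) against 4.59% of the others, and on chromosome 7 it was 4.60% (4 of 87) against 5.69%. No Zfp gene of chromosomes 8 and 10 was PI. The Zfp genes on the chromosomes not among these 5 held 4 PI and 45 IP genes among 169, or 2.37% and 26.6%.

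The PI share also moved with sequence uniqueness. Among the 97 records with fewer than 90% unique words, 15 were PI (15.5%), 16 IP (16.5%) and 22 PP (22.7%). Among the 105 with at least 90%, 5 were PI (4.76%), 16 IP (15.2%) and 9 PP (8.57%), so the IP share was alike in both and the PI and PP shares were not. Of the PI members of chromosome 13, all but Zfp493 had fewer than 90% unique words. The split by chromosome and the split by uniqueness therefore share many PI genes and cannot be told apart here. The part of read mapping in these values was not tested.

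IP genes had their highest share on chromosome 8. There 10 of 27 Zfp genes were IP (37.0%), against 17.2% of the other genes of the chromosome. Chromosomes 17 and 10 followed with 9 of 45 (20.0% against 10.7%) and 1 of 5 (20.0% against 22.1%), then chromosome 13 with 7 of 38 (18.4% against 24.9%) and chromosome 7 with 5 of 87 (5.75% against 11.4%). On chromosome 7 most records, 64 of 87, were II.

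**Figure D1:**
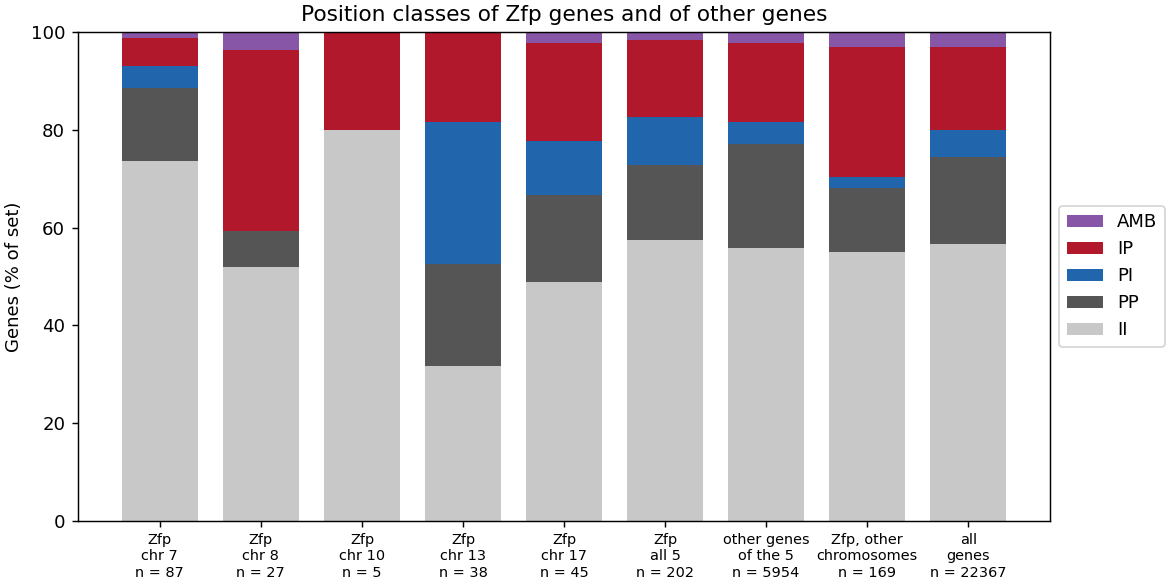
Stacked bars give the share of genes in each position class, in percent of the set, with the number of genes under each bar. Blue (PI) is widest on chromosome 13 at 28.9% and red (IP) on chromosome 8 at 37.0%, while all 202 Zfp genes together stand at 9.90% and 15.8% against 5.43% and 17.1% for all genes.

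Counted in bases, the 3.96 Mb of Zfp spans held 26.5% WT LAD and 32.9% KO LAD, below the 38.6% and 42.6% of all genes. WT-only DRs covered 7.52% of these bases and KO-only DRs 14.6%, against 5.05% and 9.17% for all genes. The genotypes differed most on chromosomes 8 and 10. On chromosome 8 the Zfp spans were 7.31% LAD in WT and 44% in KO. Of these 0.753 Mb, Zfp423 holds 298 kb and Zfp827 165 kb, and both had more LAD in KO. Over the 5 genes of chromosome 10 there was no LAD in WT and 46.3% in KO. The spans of these 5 total only 0.0624 Mb, and all of their KO-only DR bases lie on Zfp365. Chromosomes 13 and 17 had slightly more LAD in WT (33.7% against 29.9%, and 31% against 26.6%), and chromosome 7 had nearly equal values (31.2% and 31.7%). The KO-only share rests on few long genes. Without chromosome 8 it was 8.41%, and without the 3 longest members (Zfp536, Zfp423 and Zfp827) it was 8.64%, near the 7.09% of WT-only DRs in the same bases. The higher LAD total in KO rests on few long genes too. Without these 3 members LADs covered 21.9% in WT and 23.3% in KO. Over the members in clusters the LAD shares were 24.7% in WT and 24.6% in KO.

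**Figure D2:**
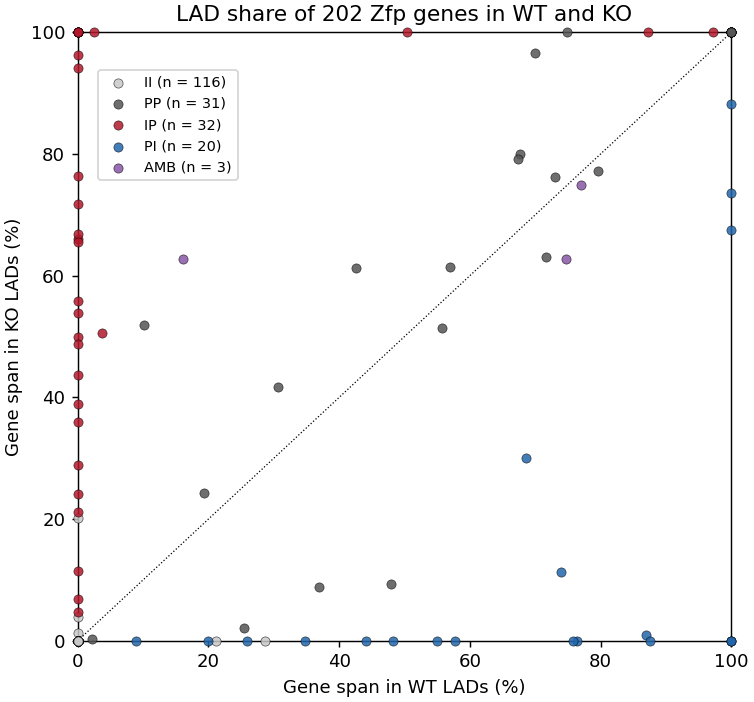
Each point is 1 of the 202 Zfp gene records, placed by the LAD share of its span, in percent, in WT (x axis) and KO (y axis) and colored by class, and points on the dotted line have equal shares. Of the II genes 111 lie at 0 in both and 14 PP genes at 100% in both, while 14 PI genes sit on the lower edge with no KO LAD and 27 IP genes on the left edge with no WT LAD.

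Within the classes the gene spans changed to different extents. The median PI member had 51.6% of its span in WT-only DRs and the median IP member 54.9% in KO-only DRs. For all PI and IP genes these values were 34.9% and 42.8%, with no matching for gene length. Of the 20 PI members, 3 lay wholly inside a WT-only DR and 14 had no KO LAD at all. Of the 32 IP members, 7 lay wholly inside KO-only DRs and 27 had no WT LAD. The same counts were not made over all PI and IP genes, so they cannot be read as particular to Zfp genes. The smallest overlaps that still gave a class were 2.82% of the span for Zfp946, 4.73% for Zfp108, 6.78% for Zfp420 (all IP) and 8.94% for Zfp606 (PI). Just outside the 10 kb limit were 5 II genes with a LAD in only 1 genotype. These were Zfp97 (28.7% in WT) and Zfp235 (21.2% in WT), named after their values were seen, and Zfp938 (20.2% in KO), Zfp93 (3.95% in KO) and Zfp329 (1.21% in KO).

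Starts of these Zfp genes lay in LADs less often than their finger exons and ends. Among the 202 members, WT LADs held the transcription start of 25 (12.4%) and KO LADs that of 36 (17.8%), against 22.7% and 32.8% of all genes. The gene end was in a WT LAD in 52 (25.7%) and in a KO LAD in 65 (32.2%), close to the 26.4% and 31.8% of all genes. In both genotypes ends were in LADs more often than starts among these 202 Zfp genes. Over all genes this difference was smaller in WT and had the opposite sign in KO. The 169 Zfp genes of the other chromosomes did not share the difference in KO. KO LADs held 57 of their starts (33.7%) and 56 of their ends (33.1%), near the values over all genes. WT LADs held 27 of their starts and 35 of their ends. The contrast in KO was therefore not common to all Zfp genes. With LADs joined across gaps of up to 20 kb, starts were in LADs in 21.3% (WT) and 27.2% (KO) of the 202 members. Over all genes these values were 25.6% and 35.7%. Ends were in joined LADs in 28.2% and 36.6% of the members, against 27.8% and 34.2% of all genes. Among the members with at least 90% unique words 6.67% of starts were in a WT LAD. Of all 202 starts, 8 were in a LAD in WT only, 19 in KO only, 17 in both and 158 in neither. Over all 22367 genes these numbers were 586, 2845, 4491 and 14445, so more starts in KO only than in WT only were not particular to Zfp genes.

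The exon that codes the fingers followed the end. It could be placed for 194 members, was the last exon in 168 and held all fingers of the transcript in 174. It lay wholly in a WT LAD in 46 (23.7%) and in a KO LAD in 54 (27.8%). In 25 members the start was outside and the finger exon inside a WT LAD, and the opposite held for 3. In KO the same numbers were 25 and 5. Among the 20 PI members the WT LAD held the start of 6, the finger exon of 14 and the end of 19. Among the 31 PP members a WT LAD held 16 starts, 28 finger exons and 29 ends, and a KO LAD held 15, 27 and 31. The contrast was weaker among the 30 IP members with a placed finger exon, of which a KO LAD held 17 starts, 20 finger exons and 22 ends.

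**Figure D3:**
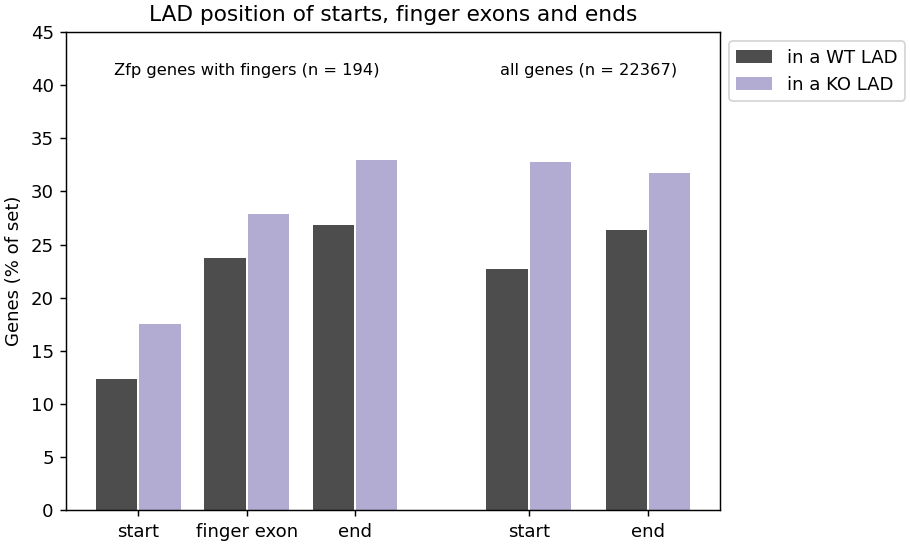
Bars give the percent of genes whose transcription start, finger exon or gene end lay in a WT LAD (dark) or a KO LAD (light), for the 194 Zfp genes with a placed finger exon and for all 22367 genes. Among these Zfp genes the bars climb from 12.4% to 26.8% in WT and from 17.5% to 33.0% in KO between start and end, whereas over all genes start and end are at 22.7% and 26.4% in WT and at 32.8% and 31.8% in KO.

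The LAD border often lay a few kilobases into the gene. In WT, 36 members had the start outside and another part of the span inside a LAD, and the nearest border downstream lay at a median of 6.49 kb from the start, within 5 kb in 13 of them. In KO there were 39 such members with a median of 6.94 kb. Over all genes the medians were 13.5 kb (1728 genes) and 11.7 kb (1994 genes), with no matching for gene length. Of the 14 PI members with the start outside WT LADs, 9 had a WT LAD border within 5 kb of the start.

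Sequences at such WT LAD borders are shown for 4 PI genes, in which the WT-only DR begins 2.4 to 3.5 kb downstream of the start. Beside them stand the DR borders nearest the start of 3 IP genes, within 1 kb of it, where the start itself lay in a KO LAD. For Zfp108 this is the end of the KO LAD that covers its start, and for Zfp330 and Zfp946 it is a WT LAD border inside a KO LAD. All lie in an intron of the gene's longest coding transcript. Each line gives 60 bases of the plus strand of NCBIM37 (mm9), 5′ to 3′, with the border in the middle and every GATC in capitals.
Zfp595 (WT-only DR, chr13:67431031-67431090): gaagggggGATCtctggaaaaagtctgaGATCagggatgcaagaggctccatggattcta
Zfp935 (WT-only DR, chr13:62565162-62565221): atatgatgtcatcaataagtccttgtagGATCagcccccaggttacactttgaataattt
Zfp369 (WT-only DR, chr13:65383395-65383454): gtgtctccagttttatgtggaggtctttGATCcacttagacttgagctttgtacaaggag
Zfp459 (WT-only DR, chr13:67511382-67511441): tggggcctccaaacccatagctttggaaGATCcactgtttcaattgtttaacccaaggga
Zfp108 (KO-only DR, chr7:25042835-25042894): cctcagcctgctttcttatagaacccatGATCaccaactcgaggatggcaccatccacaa
Zfp330 (KO-only DR, chr8:85297764-85297823): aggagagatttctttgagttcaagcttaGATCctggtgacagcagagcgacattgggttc
Zfp946 (KO-only DR, chr17:22562073-22562132): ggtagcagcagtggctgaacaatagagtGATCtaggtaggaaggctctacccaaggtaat
All 144 borders of the DRs on Zfp genes fell on a GATC, whereas 13% of the 60-base windows along these genes hold one on either strand (GATC reads the same on both). This is the resolution of the method and not a feature of the genes, since a border can lie only where *DpnI* cuts. The density of GATC was alike in all classes, with medians from 2.34 to 2.47 sites per kb of gene span.

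The DRs on these genes were short. The 26 WT-only DRs on Zfp genes had a median length of 14.5 kb (10 to 30 kb) and the 46 KO-only DRs one of 16.7 kb (10 to 52.5 kb), near the medians of the whole lists (15.7 and 18.0 kb). Of the WT-only DRs, 8 were whole WT LADs without a KO counterpart, 10 were an edge of a WT LAD and 8 lay inside one. Of the KO-only DRs, 27 were whole KO LADs, 9 an edge and 10 inside. No such split was made over the whole lists, so these counts cannot be read as particular to DRs on Zfp genes. With 1 exception, each KO-only DR touched 1 Zfp gene. The exception was 46.1 kb long on chromosome 8 and held Zfp709, Zfp882 and part of Zfp617.

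The largest cluster lies on chromosome 13, from Zfp640 to Zfp273 (chr13:66771705-67927937, 1156 kb), and contains 24 of the 38 Zfp records of the chromosome. It held 8 of the 20 PI members together with 4 IP, 6 PP and 6 II records. LADs covered 54.5% of the stretch in WT, in 14 LADs, and 45.6% in KO, in 12 LADs, whereas over all of chromosome 13 they covered 53.8% in WT and 57.6% in KO. WT-only DRs covered 16.3% of it and KO-only DRs 6.06%. Median uniqueness of its members was 82.8%, and 7.98% in Zfp640, which lay wholly in LADs of both genotypes.

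Along this cluster the classes alternated. After 4 PP genes came a run of 5 PI genes, Zfp595, Zfp953, Zfp456, Zfp429 and Zfp459, over which 3 whole WT LADs of 20.1, 11.3 and 25.2 kb had no KO counterpart. Zfp595 (chr13:67413934-67433496) was 87.5% LAD in WT and had no LAD in KO. Zfp953, which overlaps it by 14.6 kb, had 54.9% and none, and Zfp456, which overlaps Zfp953 by 15.4 kb, had 20.0% and none. Zfp429 (chr13:67490263-67500703) lay wholly in a WT LAD and 23.5 kb from the nearest KO LAD, but only 54.2% of its words were unique. Zfp459 had 57.7% in a WT LAD and none in KO. The next gene, Zfp874a, was the reverse. It had no WT LAD and 36.0% of its span in a 12.1 kb KO-only LAD, although its neighbor Zfp874b had 44.2% in a WT LAD and none in KO.

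Past the II genes Zfp58 and Zfp87 the alternation continued. Zfp748 (76.3% in KO, none in WT) and the longer record of Zfp738 (66.9% in KO, none in WT) were IP. Farther along lay the PI gene Zfp493 (chr13:67880630-67890019), wholly in a WT LAD and 6.99 kb from the nearest KO LAD. Zfp493 had 94.9% unique words, and Zfp273, the last gene, was II. The same stretch holds 14 other protein-coding genes, of which 6 were PI, 5 PP, 3 II and none IP. One of the 6 was Rsl1 (chr13:67274143-67284062), a KRAB zinc finger gene known to repress male-biased genes of the mouse liver. Rsl1 lay wholly in a WT-only DR, with 100% LAD in WT and none in KO, between the PP genes Zfp759 and Zfp455. It is named after its values were seen, as are Zfp874a, Zfp748, Zfp738, Zfp759, Zfp455, Zfp58 and Zfp87.

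**Figure D4:**
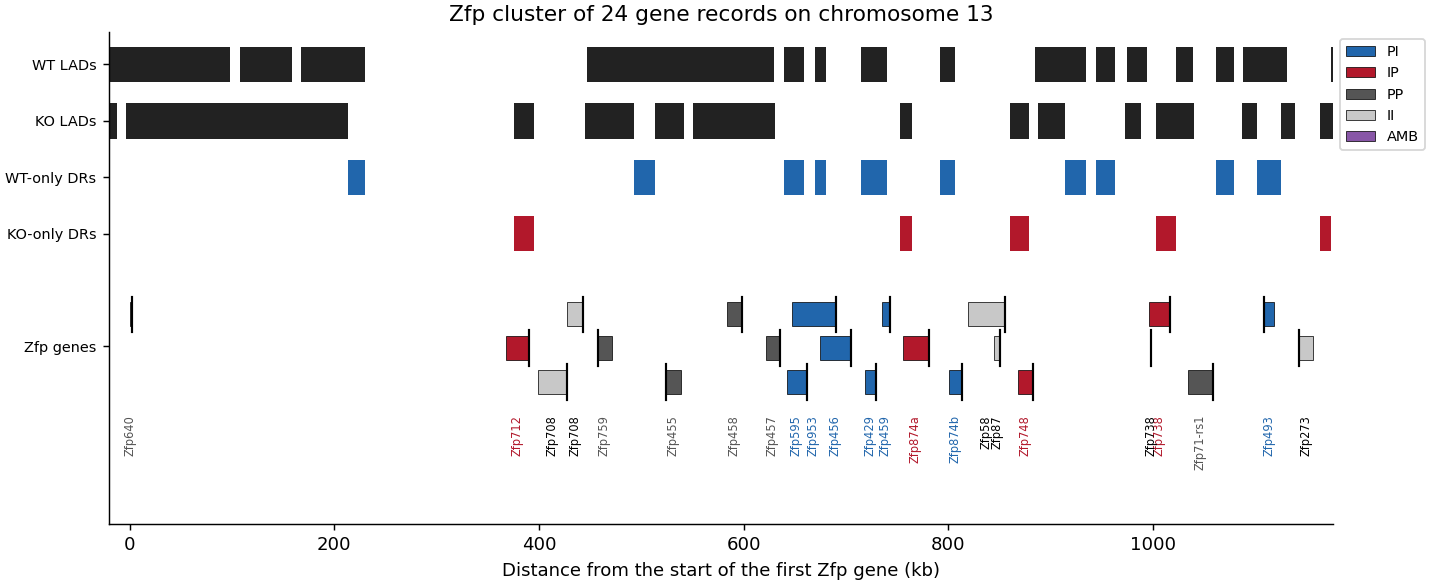
The largest Zfp cluster, drawn as distance in kb from the start of its first gene (Zfp640), with WT and KO LADs in black, WT-only DRs in blue, KO-only DRs in red, and 23 of the 24 Zfp gene records as boxes colored by class with a vertical tick at the transcription start. Between Zfp595 and Zfp874b, 4 WT LADs of 11.3 to 25.2 kb lie over PI genes with no KO LAD beneath them, and 1 KO LAD of 12.1 kb stands in between over Zfp874a.

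The other 3 PI genes of chromosome 13 lay outside this cluster. Zfp935 was 76.4% LAD in WT and had none in KO, and Zfp808 had 100% in WT and 73.5% in KO. Both belong to a cluster of 3 in which unique words were few (25.5 to 46.2%). Zfp369 had 87.0% in WT and 0.984% in KO, with 66.2% unique words.

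On chromosome 17 the largest cluster ran from Zfp160 to Zfp13 (chr17:21145905-23736454, 2591 kb) with 20 Zfp genes. LADs covered most of it, 82.6% in WT and 78.2% in KO, but in 13 pieces in WT and 20 in KO. Its members were 6 PP, 5 II, 4 PI, 4 IP and 1 AMB, while 21 of its 25 other genes were PP. The PI genes were Zfp820 (100% in WT, 88.3% in KO), Zfp943 (68.5% and 30.1%), Zfp945 (75.8% and none) and Zfp40 (48.3% and none). The IP genes included Zfp54 (chr17:21560191-21572604), with no WT LAD and 100% in a KO LAD, and Zfp946, which was 97.2% LAD in WT and 100% in KO. Zfp947 was AMB, with 37.2% of its span in a WT-only and 25.3% in a KO-only DR, and 49.7% unique words. Zfp54 lay 1.69 kb from a WT LAD, and its KO-only DR is a 15 kb edge of a longer KO LAD.

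The second cluster of chromosome 17, from Zfp871 to Zfp414 (861 kb, 14 genes), had less LAD in both genotypes, 8.97% in WT and 20.9% in KO. It held 10 II genes, 3 IP genes and 1 PI gene. Zfp799 (chr17:32956289-32959145) lay wholly in a 12.8 kb KO LAD and 61.3 kb from the nearest WT LAD. Zfp81, the PI gene, had 34.8% of its span in a 10.3 kb WT LAD and lay 43.8 kb from the nearest KO LAD.

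The chromosome 8 genes had the reverse pattern, with IP members and no PI member. The 4 genes between Zfp709 and Zfp961 (chr8:74411163-74517307) were all IP. This stretch held no WT LAD, and KO LADs covered 41.7% of it. Zfp709 and Zfp882 lay wholly in the KO-only DR, and Zfp617 and Zfp961 had 48.8% and 24.1% of their spans in KO LADs. In the cluster from Zfp930 to Zfp866 (565 kb, 6 genes) LADs covered 21.9% in WT, in 4 pieces, and 55.8% in KO, in 12 pieces. Over all of chromosome 8 LADs covered 53.1% in WT and 53.8% in KO. In this cluster only 2 of the 6 Zfp genes were IP, since most of the KO-only pieces lay between the genes. Zfp930 (chr8:71750242-71752879) was one of them, with no WT LAD on its span and all of it in a KO LAD. The other was Zfp964 at 49.9%.

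**Figure D5:**
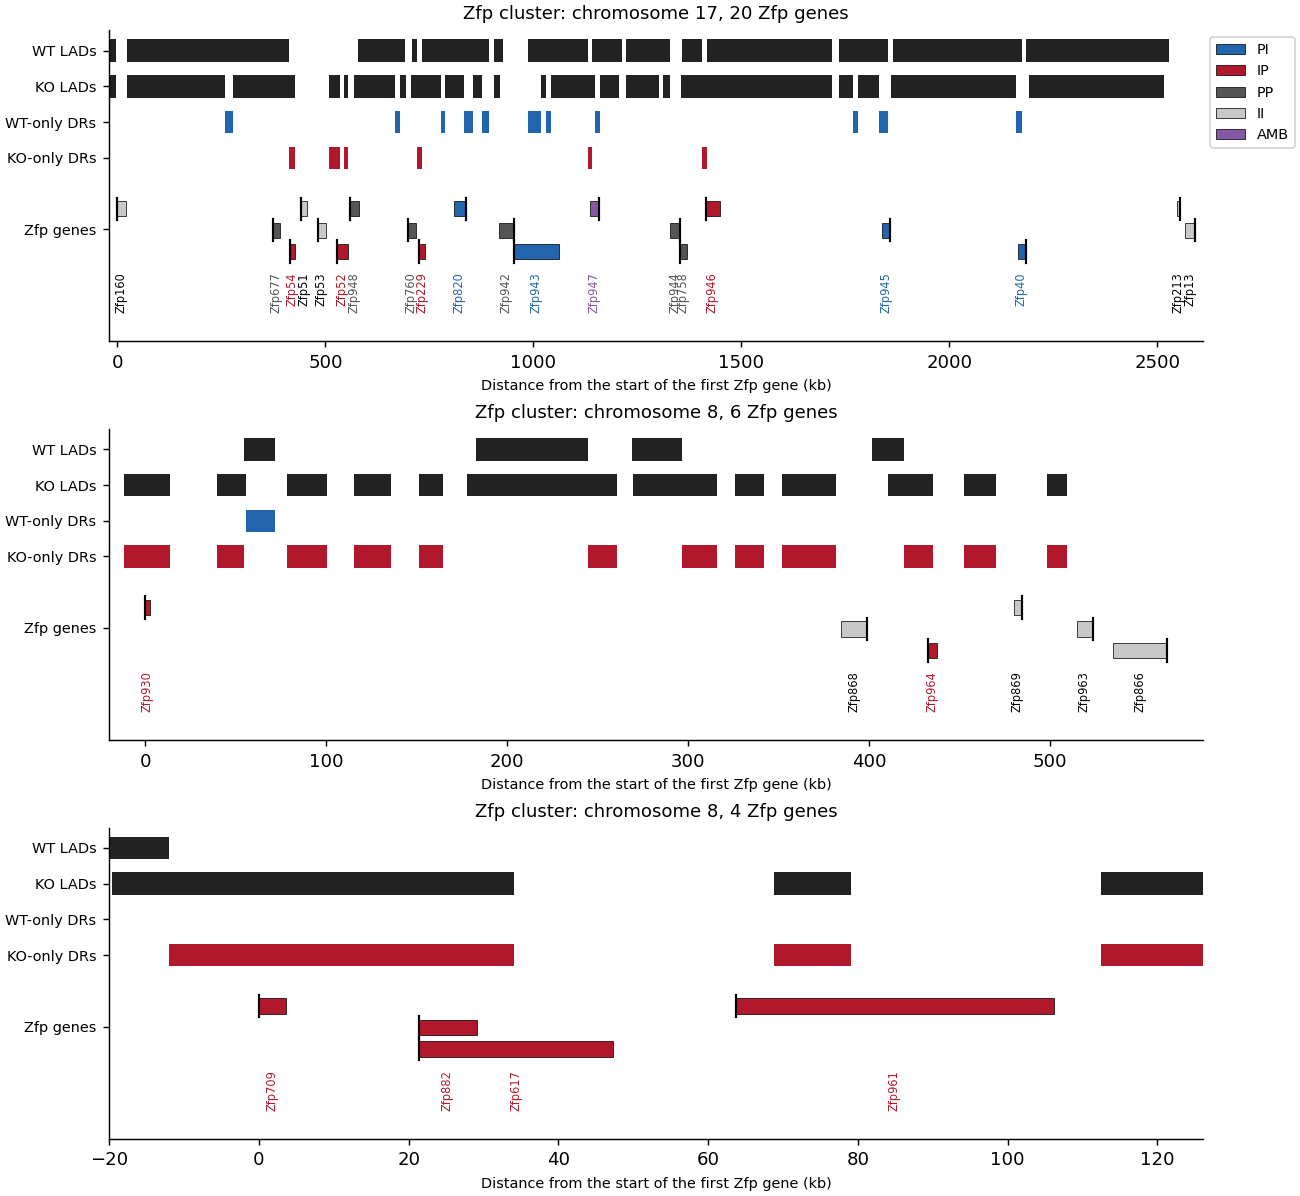
Maps of 3 Zfp clusters on chromosomes 17 and 8, with distance in kb from the start of the first gene, LADs in black, WT-only DRs in blue, KO-only DRs in red and Zfp genes as boxes colored by class with a tick at the transcription start. The chromosome 17 stretch is 82.6% LAD in WT and 78.2% in KO, and the chromosome 8 stretches go from 21.9% to 55.8% and from 0 to 41.7%.

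Outside the clusters, chromosome 8 has 2 of the longest members. Zfp423 (chr8:90185709-90483494, 298 kb) encodes a multi-finger transcription factor known from fat and brain development. It was 3.76% LAD in WT and 50.6% in KO, with 7 KO-only DRs that make up 24.7% of all KO-only bases on Zfp genes. Zfp827 (chr8:81552336-81717665, 165 kb) was AMB, with 16% in WT LADs and 62.7% in KO LADs, from 2 WT-only and 3 KO-only DRs. Zfp536 on chromosome 7 (chr7:38103693-38554771, 451 kb), a repressor of neuronal differentiation, was AMB too, but its LAD share was nearly level at 77.0% in WT and 74.9% in KO. Its 4 WT-only and 5 KO-only DRs cover 12.3% and 14.5% of it, so the borders differed between the genotypes while the total did not.

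Among the other IP genes with high KO-only shares, Zfp330 (97.5%) had its start in LADs of both genotypes and was 2.52% LAD in WT. Zfp828 had 94.1% of its span in a KO LAD and no WT LAD, and its start lay 0.706 kb outside. Zfp365 (chr10:67348851-67375410), the only IP gene among the 5 of chromosome 10, had 96.2% in a 52.5 kb KO LAD and lay 43.2 kb from the nearest WT LAD. Zfp161 (chr17:69732390-69740090), whose protein carries a BTB domain in place of KRAB, lay wholly in a KO LAD and 1.36 kb from a WT LAD.

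Of the 9 clusters of chromosome 7, 5 had LADs over at most 13.6% of their stretch in either genotype. The 10 genes from Zfp553 to Zfp646 and the 6 genes from Zfp628 to Zfp580 were all II, with no LAD of either genotype in the stretch. The 14 genes from Zfp84 to Zfp146 (401 kb) had no WT LAD and KO LADs over 4.63%. Their only IP gene was Zfp420, with 6.78% of its span in an 18.6 kb KO LAD that lay 1264 kb from the nearest WT LAD. The 14 genes from Zfp180 to Zfp526 (1146 kb) had LADs over 6.21% in WT and 13.6% in KO, with 10 II, 3 PP and 1 IP gene, Zfp108. At the other end stood the 4 genes from Zfp954 to Zfp772, all PP, with LADs over 91.2% of the stretch in WT and 91.3% in KO.

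Whole-gene differences were also found on chromosome 7, in both directions and in highly unique genes. Zfp551 (chr7:13000502-13008100) lay wholly in a WT LAD and in no KO LAD, where a long WT LAD had a 12.3 kb gap in KO. It had 98.6% unique words. Zfp715 (chr7:50551567-50568664) had none in WT and 100% in a 26.8 kb KO LAD, with 94.3% unique words. Zfp606, Zfp788 and Zfp819 were PI at the edge of a WT LAD, with LAD shares of 8.94%, 74.0% and 100% in WT and of 0, 11.3% and 67.4% in KO.

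Across the 18 clusters, 10 had more LAD bases in KO, 6 had more in WT and 2 had none in either. PI or AMB genes occurred in 6 clusters and IP or AMB genes in 11, and 4 clusters held both PI and IP genes. In 3 clusters every Zfp gene was II.

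The PP genes with the largest change of LAD share differed both ways. Zfp948 was 10.1% LAD in WT and 51.8% in KO, Zfp322a 47.9% and 9.38%, and Zfp960 36.9% and 8.84%. The differences on these genes came in pieces under 10 kb, and only 7.11% of the words of Zfp960 were unique. Of the 31 PP genes, 14 lay wholly in LADs of both genotypes, 10 had a larger share in KO and 7 a larger share in WT. The 116 II genes were at a median of 112 kb from a WT LAD and 51.3 kb from a KO LAD.

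PI, IP, PP and II members were alike in finger number, and in base composition the II members stood apart from the other 3 classes. The median number of fingers was 11 in PI, 12.5 in IP, 11 in PP and 10 in II members. Median GC content of the span was 40.7% in PI, 41.8% in IP and 40% in PP members, against 45.3% in II members. The 3 AMB members had a median of 46.1%. Median uniqueness was 83.8% in PI, 89.4% in IP, 83.8% in PP and 92.3% in II members.

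Promoters, taken as 250 bases before to 50 after the start, held a median of 11 CG dinucleotides in Zfp genes, as over all genes. Zfp genes with the start in a LAD of either genotype had a median of 8 (44 genes) and those with the start in no LAD 12 (158 genes). Over all genes these medians were 4 and 16. The 47 Zfp genes with the start outside and another part of the span inside a LAD had a median of 11. GATC was found in 52.0% of Zfp promoters and in 46.2% of all promoters.

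The starts that lay in a LAD in KO alone ranged widely in CG content, which the 2 extremes among the genes named for a large KO-only share show. Zfp161 had 34 and Zfp799 had 0 in the 300-base window. The 250 bases before each start follow, on the coding strand of NCBIM37 (mm9), 5′ to 3′, with each CG in capitals.
Zfp161 (chr17:69732140-69732389, plus strand): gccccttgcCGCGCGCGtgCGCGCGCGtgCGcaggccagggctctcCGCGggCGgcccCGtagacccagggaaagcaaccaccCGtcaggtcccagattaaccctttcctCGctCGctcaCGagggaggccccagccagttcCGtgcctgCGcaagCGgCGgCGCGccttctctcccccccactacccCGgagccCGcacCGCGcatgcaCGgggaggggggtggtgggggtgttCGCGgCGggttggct
Zfp799 (chr17:32959146-32959395, minus strand): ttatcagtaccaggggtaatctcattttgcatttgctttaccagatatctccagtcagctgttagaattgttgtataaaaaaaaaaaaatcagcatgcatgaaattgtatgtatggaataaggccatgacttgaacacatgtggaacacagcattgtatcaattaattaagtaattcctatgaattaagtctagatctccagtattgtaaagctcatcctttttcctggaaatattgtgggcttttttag
Both starts lay outside WT LADs and inside KO LADs, and both genes lay wholly in a KO-only DR.

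The partners of the KRAB zinc finger proteins were looked up wherever they lie, as 18 genes with 19 records. None was PI, 5 records of 4 genes were IP (26.3%, against 17.1% of all genes), 1 was PP and 13 were II. Over all genes 5.43% were PI. Suv39h2, a histone H3 lysine methyltransferase of heterochromatin, had no WT LAD and 69.7% of its span in KO LADs. Smarcad1, a chromatin remodeler, had 42.9% and Setdb1 20.6% in KO LADs, both with none in WT. The longer record of Atf7ip, the partner of Setdb1, had 19.3% in WT and 25.1% in KO, and its short second record 0 and 100%. Hdac2, a histone deacetylase, was PP with 56.3% in WT and 63.9% in KO. Trim28 itself was II, 29.8 kb from a WT LAD and 6.56 kb from a KO LAD.

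Other zinc finger genes of the same chromosomes, found by symbols such as Zscan, Zkscan, Zbtb and Zim and by Rsl1, numbered 27. Of these 3 were PI (11.1%), 4 IP (14.8%), 9 PP (33.3%) and 11 II, against 5.43% PI, 17.1% IP and 17.9% PP over all genes. The PP genes include the Zscan4 records that lie together on chromosome 7. Among the IP genes, Zscan12, Zkscan3 and Zkscan4 lie near one another, so the 27 genes are not independent. Zscan5b and Zim1 on chromosome 7 were 100% LAD in WT and had none in KO, like Rsl1. Zscan12, Zkscan3 and Zkscan4 on chromosome 13 and Zbtb45 on chromosome 7 had none in WT and 100% in KO. These genes too are named after their values were seen.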

How the data were processed

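The authors mapped the DamID reads to mm9, compared the Dam-LaminB1 with the Dam only library on every *DpnI* fragment as a log2 ratio, and called LADs with DNAcopy at default settings. The processing notes of the submitters name BWA and limma, with no version or role. The deposited values are the positions of 2 LAD lists and 2 DR lists, with no score, read depth or count, so no interval for depth can be given. Repeating the subtraction of the LAD lists with a minimum of 10 kb returned both DR lists.

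Gene records and exons came from the GENCODE annotation of NCBIM37, the assembly of mm9, and sequences from that genome. Positions are 1-based. A class needed an overlap of at least 1 base with the gene span. Fingers were found in the translated longest coding transcript of each gene by the spacing of cysteines and histidines, in place of a protein table, which was not used here. Unique words are the 31-base words of a span that occur once in the genome on either strand. Python 3.11.15, numpy 2.4.6, scipy 1.17.1, pysam 0.24.0, biopython 1.88 and matplotlib 3.10.9 were used. The interval steps, tested on simulated data, gave 0 errors.

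With 1 library pair per genotype no test was made. Members and lists were chosen with earlier results of these data known. The genes named are every PI and AMB member except 1 that is not reported here, the 10 IP members with the largest and the 3 with the smallest KO-only share, the 3 longest members, the first and last of the 5 largest clusters, the 3 PP members with the largest change, the 3 II members nearest a KO LAD, and the corepressor genes. Others are named as chosen after their values were seen, as are the ends of the smaller clusters and the remaining IP and PP genes given with a value.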

Additional observations from a re-analysis of the deposited data

How the results depend on the processing

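A value was counted as unchanged when it stayed within a factor of 1.5, which 137 values recomputed under another setting did and 27 did not. The PI share of Zfp genes (9.90%) was 4.95% where a DR had to cover 50% of the gene and 4.95% with DRs of at least 20 kb, 3.47% by the start alone, 16.8% in 100 kb windows centered on the gene, 5.49% without chromosome 13, and 4.76% among genes with at least 90% unique words. The IP share (15.8%) was 8.91% where a DR had to cover 50%, 6.93% with the longer DRs, 9.41% by the start and 30.7% in the windows. The PP share (15.3%) was 8.42% by the start, 6.93% with LAD differences of any length and 8.57% among the more unique genes. The II share (57.4%) was 27.7% in the windows. The AMB share (1.49%) was 0 where a DR had to cover 50%, by the start and with the longer DRs, 11.4% in the windows and 0.654% within clusters. Starts in WT LADs (12.4%) were 21.3% with LADs joined across gaps of up to 20 kb and 6.67% among the more unique genes, and starts in KO LADs (17.8%) were 27.2% with the joined LADs. KO-only DR bases (14.6%) were 7.57% within clusters and 8.41% without chromosome 8. Of the 53 named Zfp genes, 29 kept their class by the start, 35 in the windows and 33 with the longer DRs. The number of clusters (18) and of genes in them (153) stayed within the factor with gaps of 250 and 1000 kb. The unique-word setting and the use of 1 record per symbol were chosen after seeing the data. The causes of these shifts were not tested. A stricter setting leaves fewer bases or DRs by its definition. No paired analysis was possible because each genotype has 1 library pair and no result comes from a test. The lists hold no signal, so how far a region lies above its threshold is unknown, and a gene near the threshold can fall on either side.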
